A study of Mus musculus with 18 samples.

Results

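The integrated stress response was followed in newly made RNA through 10 mouse genes: Eif2ak1, which encodes the haem-regulated eIF2alpha kinase HRI, the kinase genes Eif2ak2 and Eif2ak4, and Atf4, Ddit3, Ppp1r15a, Trib3, Asns, Chac1 and Ddit4. The set was drawn up with earlier results of these data known, and its members were found by gene symbol. Each matched 1 of the 54232 identifiers in the deposited count table. All 10 passed the filter on low counts. The cells came from livers of C57BL/6 mouse embryos at stage e12.5-e13.5 and were sorted on CD71, the transferrin receptor, and Ter119, a surface marker of maturing red cells. S0-Low cells were titled CD71 low, while their marker label gives them as negative for lineage markers, CD71 and Ter119, and S0-Medium cells had medium CD71 and no Ter119. S1, S2 and S3 cells all had high CD71, with no Ter119 in S1, medium Ter119 in S2 and high Ter119 in S3. Lin+ cells carried markers of other blood lineages (the lineage antibodies were against CD41, CD45R, CD3e, CD11b and Ly-6G/6C). All cells were rested for 6 h in culture after sorting and then given 500 µM 4-thiouridine (4sU) for 45 min, a uridine analogue that enters RNA during transcription and allows that RNA to be purified and sequenced. There were 3 libraries for each of the 6 populations, 18 in all, and the labels do not say how many embryos went into a library.

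In the integrated stress response, several kinases that each sense a different stress phosphorylate the alpha subunit of the translation factor eIF2. Most protein synthesis then slows, while the mRNA of the transcription factor ATF4 is translated more, and ATF4 switches on genes for amino acid supply, redox balance and, through CHOP (the product of Ddit3), cell death. HRI is the member of the kinase family that is abundant in erythroid cells, where haem holds it inactive and lack of haem activates it, so that globin synthesis is matched to haem supply. RNA levels do not report kinase activity or eIF2alpha phosphorylation, and neither was measured here.

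Total counts ranged from 9452476 to 40567976 per library. S0-Low replicate 3 was the shallowest, and 3 counts there correspond to 0.317 CPM before scaling (CPM, counts scaled to a common library size). Levels below are CPM after scaling by edgeR's TMM method, and differences are log2 fold changes with their standard errors (SE) from edgeR's quasi-likelihood test, two-sided, called at a Benjamini-Hochberg adjusted p under 0.05 over all genes tested. Over all 16555 genes tested, the median log2 fold change of S3 over S0-Low was -0.54, and -1.36 when libraries were scaled by their totals alone, so a fold change below is relative to a set of genes that was lower in S3. In these bulk samples, fewer cells of a type and less RNA per cell cannot be told apart. The erythroid markers Alas2 (haem synthesis) and Slc4a1 (band 3) rose from S0-Low to S3, by 9.49 (adjusted p = 4.81e-07) and 10.05 (adjusted p = 3.88e-06) on the log2 scale. Slc4a1 had 10580 to 20720 CPM in S3 and 4.82 to 11.3 CPM in Lin+. The Lin+ libraries were labelled as erythroblasts, but had 3309 to 5833 CPM over 8 granulocyte and monocyte markers, against 430.4 to 832 CPM in S0-Low and 0 to 1.26 CPM in S3.

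The promoters of the 10 genes were searched for TGATGNAA, the composite site bound by ATF4 with C/EBP partners, on both strands. Each RefSeq window (GRCm38.p6) ran from 250 bases before to 50 after the transcription start. The site was in the windows of Asns, Chac1 and Trib3, 3 of the 10 genes, against 3.97% of 32851 promoters and 4.51% of 27025 genes. A GATA site (AGATAA) was in the windows of Ddit3 and Ppp1r15a, 2 of the 10 genes, against 12.7% of genes, and a KLF site (CCACACCC) in that of Eif2ak4, 1 of the 10, against 4.09%, on either strand. The stretches before the start are shown for Asns and Chac1, the genes with a TGATGNAA match before the start, with the match in capitals. The Asns stretch lies at chr6:7693210-7693252 and is written along the gene's minus strand. The Chac1 stretch lies at chr2:119351029-119351076 on the plus strand and holds the site on the opposite strand, so that the capitals read as its reverse complement.
Asns: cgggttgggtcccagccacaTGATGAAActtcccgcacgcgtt
Chac1: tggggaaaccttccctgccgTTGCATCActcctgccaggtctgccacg
The match began 23 bases before the start in Asns and 193 bases before it in Chac1, and in Trib3 it lay after the start, at position 14. A match describes the letters in the window and is neither a measured binding site nor a cause.

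Eif2ak1 (ENSMUSG00000029613; chromosome 5, 143817792 to 143902717, plus strand) was the kinase gene that rose. It stood at 104, 131 and 171 CPM in the 3 S0-Low libraries and at 117, 159 and 264 CPM in S0-Medium. It reached 196, 210 and 477 CPM in S1 and 321, 383 and 835 CPM in S2. In S3 it stood at 1370, 2185 and 3217 CPM. Every S3 library was above every other erythroid library, whereas each earlier population overlapped its neighbour. S3 exceeded S0-Low by 4.06 on the log2 scale (SE 0.52, adjusted p = 5.12e-05), a 16.6-fold difference. With scaling by library totals it was 3.15. Sequence shared with other genes bears on this count: 10.4% of the 31-base stretches of its transcripts also occurred in other genes, mostly in Aimp2 and Ankrd61, which overlap it on the opposite strand, and whether the counting used strand is not given in the sources used here.

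Eif2ak4 (chromosome 2, 118388583 to 118475234, plus strand), which encodes GCN2, the kinase that senses uncharged tRNA, went the opposite way. It stood at 131, 106 and 92.6 CPM in S0-Low and at 35.9, 40.7 and 10.3 CPM in S3. All 3 S3 libraries lay below all 3 of S0-Low, and the fall of 1.92 on the log2 scale passed the test (SE 0.42, adjusted p = 0.00256). With library totals the log2 fold change was -2.70. Eif2ak2 (chromosome 17, 78850504 to 78882572, minus strand), which encodes PKR, the kinase activated by double-stranded RNA, did not pass. It had 59.2, 57.0 and 33.9 CPM in S0-Low against 81.9, 53.7 and 66.4 CPM in S3, with overlapping libraries and a log2 fold change of 0.43 (SE 0.31, adjusted p = 0.297) that became -0.39 with scaling by library totals. Eif2ak3, the gene of the remaining kinase PERK, which senses unfolded protein in the endoplasmic reticulum, had a log2 fold change of 0.03 in the same comparison (adjusted p = 0.961).

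Per kilobase of the longest annotated transcript, Eif2ak1 rose from 31.3 ± 7.8 CPM per kilobase (mean ± SD, n = 3) in S0-Low to 521 ± 214 in S3, while Eif2ak4 went from 20.7 ± 3.6 to 5.47 ± 3.08 CPM per kilobase. Eif2ak2 had 11.6 ± 3.3 and 15.6 ± 3.3 CPM per kilobase and Eif2ak3 16.3 ± 7.2 and 16.6 ± 5.4 in the same populations. Eif2ak1 therefore made up 38.8% ± 6.1 of the summed per-kilobase level of the 4 kinase genes in S0-Low and 92.2% ± 4.8 in S3. The populations between them had shares of 46.0% ± 12.9 (S0-Medium), 57.4% ± 10.9 (S1) and 70.9% ± 7.2 (S2). The lowest S3 share, 86.7%, was above the highest S2 share, 79.2%. In Lin+ the share was 24.3% ± 4.1, and Eif2ak2 held the largest share there, 32.7% ± 4.0.

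**Figure D1:**
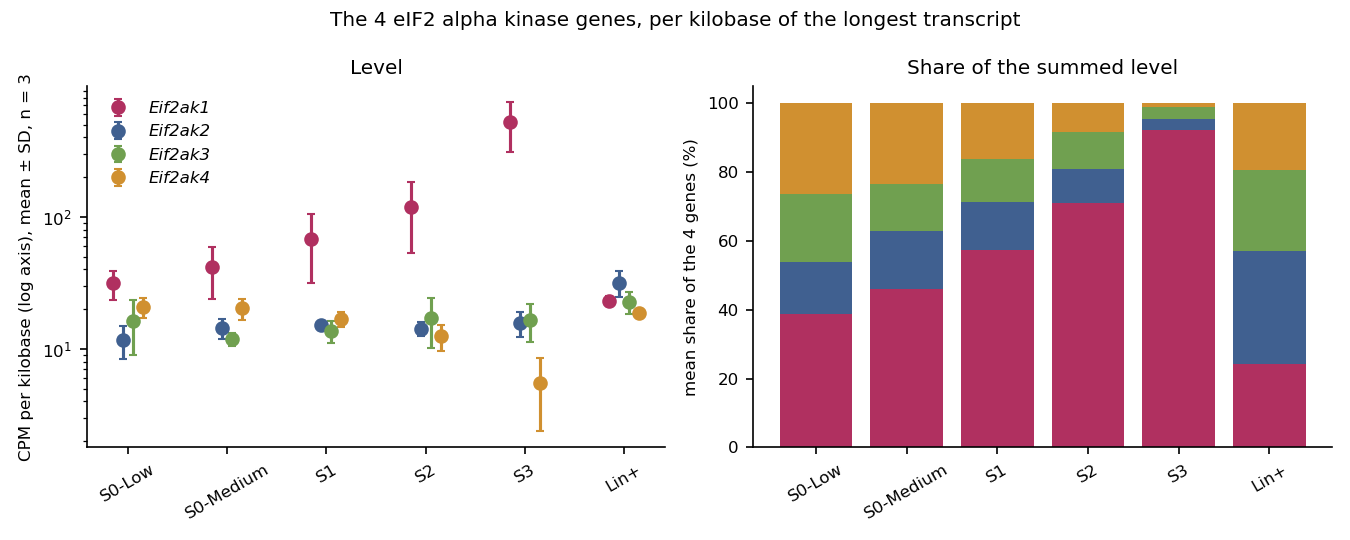
Left, level of the 4 eIF2alpha kinase genes in CPM per kilobase of the longest transcript on a log axis (points, mean; bars, SD; n = 3 libraries for each population); right, mean share of each gene in their summed level, in percent, in the same colours. Eif2ak1 goes from 38.8% of the sum in S0-Low to 92.2% in S3 and is 24.3% in Lin+.

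Atf4 (chromosome 15, 80255184 to 80257545, plus strand), the transcription factor through which the kinases act on genes, had 335, 547 and 226 CPM in S0-Low and 1297, 2339 and 2341 CPM in S3. Every S3 library again lay above every library of the other 5 populations. The difference was 2.43 on the log2 scale (SE 0.38, adjusted p = 0.000227), a 5.39-fold rise, and 1.57 with library totals. Atf4 is known to be controlled mainly through translation of its mRNA, which 4sU labelling does not measure.

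Ddit3 (chromosome 10, 127290793 to 127296291, plus strand) encodes CHOP, a partner and target of ATF4. It had 13.4, 25.9 and 29.9 CPM in S0-Low, 67.2, 91.4 and 421 CPM in S2 and 395, 693 and 1147 CPM in S3. All S3 libraries were above all S0-Low libraries, but S2 replicate 3 was above S3 replicate 1. The rise from S0-Low to S3 was 5.02 on the log2 scale (SE 0.77, adjusted p = 0.000202), or 4.09 with library totals. Of its 31-base stretches, 2.40% also occurred in other genes, nearly all in Mars1 on the opposite strand, and Mars1 itself was 1.40 higher on the log2 scale in S3 (adjusted p = 0.00424).

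Ppp1r15a (chromosome 7, 45522917 to 45526268, minus strand) encodes GADD34, the stress-induced subunit that directs protein phosphatase 1 to eIF2alpha and so reverses the phosphorylation. It had 48.7, 89.5 and 106 CPM in S0-Low, 287, 611 and 1115 CPM in S2 and 2328, 4100 and 8320 CPM in S3. The libraries of S3 were separate from those of every other population. Ppp1r15a rose by 5.91 on the log2 scale (SE 0.71, adjusted p = 3.08e-05), a 60.3-fold difference. Without S3 replicate 3 the rise was 5.29, and with library totals 4.98. On the per-kilobase scale it had the highest S3 level of the 10 genes, 1750 CPM per kilobase against 1155 for Atf4 and 769 for Ddit3.

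Trib3 (chromosome 2, 152337425 to 152344060, minus strand), a pseudokinase induced by ATF4 and CHOP that restrains both, was low in S0-Low. It had 7.49 and 8.11 CPM in S0-Low replicates 1 and 2 and 0 counts in replicate 3, the shallowest library, against 853, 896 and 992 CPM in S3. Every S3 library lay above every library of the other populations, of which S2 replicate 3 was the highest at 530.1 CPM. The fitted rise of 7.43 on the log2 scale (SE 1.20, adjusted p = 0.000288) was 6.82 to 7.82 when each S0-Low or S3 library was left out in turn, the lowest without S0-Low replicate 3, and 6.62 with library totals.

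Asns (chromosome 6, 7675165 to 7693209, minus strand), which encodes asparagine synthetase, rose more evenly than the rest. It had 134, 137 and 97.4 CPM in S0-Low, 172, 245 and 277 CPM in S0-Medium and 405, 311 and 387 CPM in S1. It had 518, 372 and 762 CPM in S2 and 761, 814 and 886 CPM in S3. The first 3 populations did not overlap one another, whereas S1 overlapped S2 and S2 overlapped S3. The rise from S0-Low to S3 was 2.74 on the log2 scale (SE 0.32, adjusted p = 2.27e-05), or 1.90 with library totals.

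Chac1 (chromosome 2, 119351242 to 119354326, plus strand) encodes a glutathione-degrading enzyme downstream of ATF4 and CHOP. It had 0.853, 1.02 and 5.15 CPM in S0-Low, 3.26, 5.67 and 110.4 CPM in S2 and 74.4, 101 and 186 CPM in S3. The S3 libraries were all above those of S0-Low, and S2 replicate 3 lay among them. The rise was 5.73 on the log2 scale with the widest error of the 10 genes (SE 1.41, adjusted p = 0.00583). It was 6.96 without S0-Low replicate 3 and 4.77 with library totals.

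Ddit4 (chromosome 10, 59949675 to 59951770, minus strand), which encodes REDD1, an inhibitor of mTORC1 that is also induced by hypoxia and glucocorticoids, did not share the pattern. It had 9.28, 8.38 and 6.31 CPM in S0-Low, a mean of 2.22 ± 1.07 CPM (SD, n = 3) in S2, and 20.5, 10.1 and 2.18 CPM in S3. S3 replicates 1 and 2 lay above every other erythroid library and replicate 3 lay among them, and the difference from S0-Low was 0.45 on the log2 scale (SE 0.82, adjusted p = 0.690). Without S3 replicate 1 it was -0.39, so no direction can be given.

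**Figure D2:**
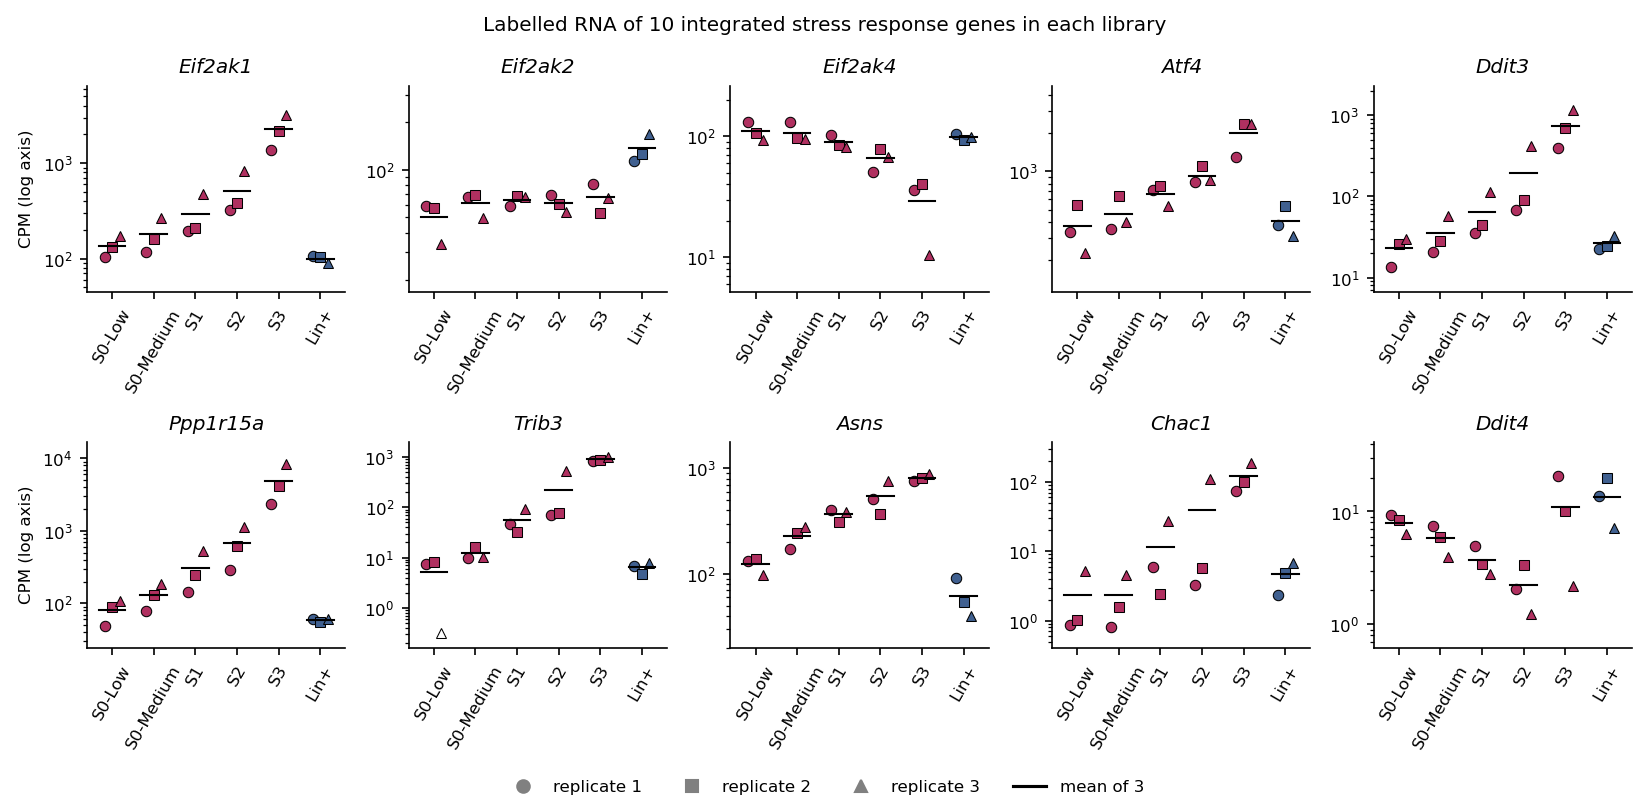
Level of each of the 10 genes in every library, in CPM on a log axis, for the 5 erythroid populations (red) and Lin+ (blue), with a symbol for each replicate number and a line at the mean of the 3. The open triangle marks S0-Low replicate 3 for Trib3, at 0 counts, drawn at 0.317 CPM. In S3 the libraries of Eif2ak1, Atf4, Ppp1r15a and Trib3 lie above all others, while those of Eif2ak4 lie lowest.

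Counted together, 8 of the 10 genes passed the test between S3 and S0-Low. The 7 higher ones compare with 13.4% of all genes tested, and Eif2ak4, the 1 lower gene, with 22.4%. The median log2 fold change was 3.40 over the 10 genes and -0.54 over all genes. The count was 8 under every alternative tried, including the use of replicates 1 and 2 only, while calls over all genes ranged from 4344 to 7384. Asked whether a gene differed anywhere among the 5 erythroid populations (an F test in edgeR over the 15 libraries), 8 of the 10 genes passed, with adjusted p from 1.61e-05 for Ppp1r15a to 0.0167 for Eif2ak4, against 24.6% of all genes. Eif2ak2 (adjusted p = 0.850) and Ddit4 (adjusted p = 0.235) did not.

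The first 3 steps of maturation showed no call for these genes. Means of 6 genes (Eif2ak1, Atf4, Ddit3, Ppp1r15a, Trib3 and Asns) were higher at each of the 4 steps. How many of all genes did so was not counted. Yet from S0-Low to S0-Medium edgeR called 0 of the 10 genes, against 0.0% of all genes, and 1 gene had an unadjusted p under 0.05, Asns, at 0.91 on the log2 scale (SE 0.30). From S0-Medium to S1 it also called 0 of 10, against 0.0% of all genes, and 2 had an unadjusted p under 0.05, Trib3 at 2.22 (SE 0.95) and Asns at 0.67 (SE 0.30). From S1 to S2 it called 0 of 10, against 0.0% of all genes, and 2 had an unadjusted p under 0.05, Ddit3 at 1.59 (SE 0.67) and Trib3 at 1.99 (SE 0.94). Without S2 replicate 3, Ddit3 was at 0.30 and Trib3 at 0.37. Leaving out S0-Medium replicate 1 brought Asns at the step before to 0.44. DESeq2 called 0 of the 10 at each of these steps too. Over all 16555 genes, 539, 1135 and 667 had an unadjusted p under 0.05 at the 3 steps in edgeR, while DESeq2 called 47, 401 and 148. Same-numbered libraries deviated together at each of these steps. With the replicate number as a block, edgeR called 0 of the 10 genes, and 23, 57 and 0 of all genes in turn. In that fit Ppp1r15a had adjusted p = 0.0533 from S0-Medium to S1.

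The step from S2 to S3 held the calls. Eif2ak1 rose by 2.14 on the log2 scale (SE 0.48, adjusted p = 0.0126) and Ppp1r15a by 2.88 (SE 0.62, adjusted p = 0.00992), so that 2 of the 10 genes passed in the higher direction, against 3.26% of all genes, and 0 in the lower, against 6.09%. Without S3 replicate 3 the Ppp1r15a rise was 2.25. In the lower direction Eif2ak4 had an unadjusted p under 0.05 in edgeR, at -1.18 (SE 0.41, adjusted p = 0.0822), and DESeq2 called 6 of the 10 genes in all and 3332 of all genes, against 1548 of all genes in edgeR. A further 4 genes had an unadjusted p under 0.05 with higher means in S3. They were Ddit4 at 2.30, Trib3 at 2.02, Ddit3 at 1.95 and Atf4 at 1.11 on the log2 scale, with adjusted p from 0.0679 to 0.182, so none of them counts as changed at this step. Without S2 replicate 3 the difference was 3.63 for Trib3 and 3.22 for Ddit3, and without S3 replicate 1 it was 1.46 for Ddit4. With the replicate number as a block, since same-numbered S2 and S3 libraries deviated together, 6 passed: Eif2ak1 (adjusted p = 2.95e-05), Ppp1r15a (1.13e-05), Ddit3 (0.000276), Chac1 (0.00795), Atf4 (0.00913) and, lower, Eif2ak4 (0.0245). The block also raised the calls over all genes, from 1548 to 3074. Single libraries moved this count: 1 gene passed without S2 replicate 1 or without S2 replicate 2, and 5 without S2 replicate 3. Calls over all genes moved the same way, to 698, 692 and 2375 in turn. Without either of the first 2, the adjusted p of Eif2ak1 was 0.0659 or 0.0654.

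**Figure D3:**
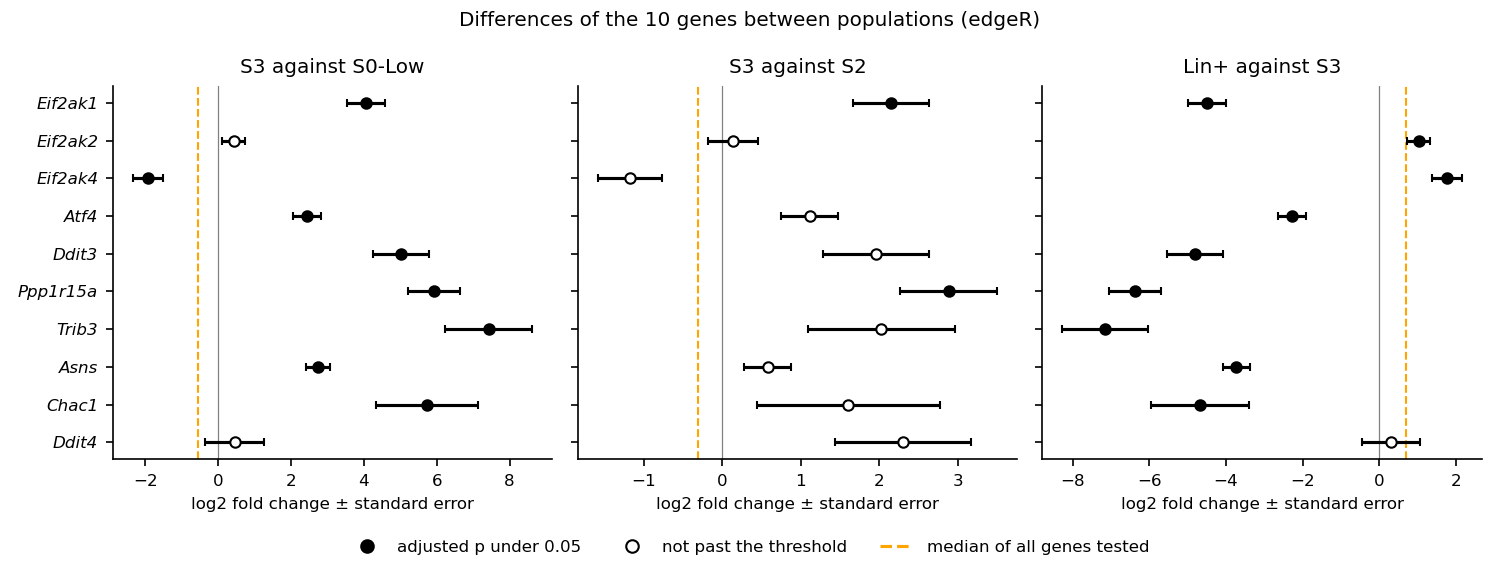
Log2 fold change with its standard error for each of the 10 genes (S3 against S0-Low, S3 against S2, Lin+ against S3) (filled, adjusted p under 0.05; open, above it), from edgeR fits to 15 erythroid libraries or, for Lin+, to all 18. The dashed line is the median of all genes tested, -0.54, -0.31 and 0.69 in turn. Most of the 10 genes lie far from that line in the outer panels, and Eif2ak2 and Ddit4 lie close to 0 in the first.

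Replicate 3 was often the highest library of its population. This was so in 27 of the 50 combinations of a gene with an erythroid population, and in all 5 populations for Eif2ak1, Ddit3, Ppp1r15a and Chac1. The share over all genes was not counted. Erythroid maturation markers stood apart in replicate 3 of S1 and of S2. In S1, Slc4a1 had 299.6, 299 and 1485 CPM, Alas2 had 73.0, 88.5 and 210 CPM and Kit, a progenitor gene, had 251 CPM, 241 CPM and 160 CPM in replicates 1, 2 and 3. In S2, the band 3 gene Slc4a1 had 1205, 1582 and 4599 CPM and the haem synthesis gene Alas2 had 233, 317 and 779 CPM, while Kit had 124, 80.9 and 17.7 CPM in replicates 1, 2 and 3. In S3, replicate 3 was also highest for Slc4a1 (10580, 15400 and 20720 CPM) and Alas2 (2599, 3576 and 4058 CPM). Kit had 0, 2.61 and 0 CPM there. The earliest gates were mixed. Alas2 was highest in replicate 3 of S0-Low (4.01, 4.81 and 5.48 CPM) and of S0-Medium (19.8 CPM, with at most 17.4 CPM in the others), and so was Slc4a1 in S0-Medium (66.2, 48.2 and 73.3 CPM) but not in S0-Low (7.34, 21.5 and 15.3 CPM). Kit was also highest in replicate 3 of S0-Low (411, 321 and 729 CPM) and of S0-Medium (394, 337 and 615 CPM). In S2 replicate 3, Trib3 (530.1 CPM), Ddit3 (421 CPM) and Chac1 (110.4 CPM) were each above both other S2 libraries, of which the higher had 77.1, 91.4 and 5.67 CPM in turn. The part of cell maturity within a gate in these differences was not tested.

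Lin+ was set beside S0-Low, the least mature gate without lineage markers, and 1 of the 10 genes differed. Eif2ak1 had 106, 104 and 90.2 CPM in Lin+ and Ppp1r15a had 61.5, 56.1 and 61.5 CPM, and both overlapped S0-Low. Eif2ak2 had 113, 127 and 170 CPM in Lin+ and no more than 59.2 CPM in S0-Low, with no overlap. It was 1.45 higher on the log2 scale (SE 0.30, adjusted p = 0.0260), which made 1 call among the 10 genes, against 0.496% of all 17755 genes tested with Lin+ in the higher direction. That call was lost when any 1 of the 6 libraries compared was left out (adjusted p up to 0.176), although the difference stayed between 1.23 and 1.59. Calls over all genes fell too in these fits, from 127 to between 42 and 69. Eif2ak2 is also known as an interferon-induced gene. Asns had 92.3, 53.7 and 39.7 CPM in Lin+, below each S0-Low library, with a difference of -0.99 on the log2 scale that did not pass (SE 0.33, adjusted p = 0.224).

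Against S3, 9 of the 10 genes passed in Lin+. The 7 lower genes compare with 14.1% of all genes and the 2 higher ones, Eif2ak2 and Eif2ak4, with 28.2%. Lin+ was lower than S3 by 4.50 on the log2 scale for Eif2ak1 (log2 fold change -4.50, SE 0.50, adjusted p = 3.23e-06), and the largest difference was that of Trib3 (-7.14, SE 1.12, adjusted p = 8.57e-05). Lin+ was higher by 1.77 for Eif2ak4 (SE 0.39, adjusted p = 0.00156) and by 1.02 for Eif2ak2 (SE 0.29, adjusted p = 0.0104). Without Lin+ replicate 3 the Eif2ak2 difference was 0.85 and its call was lost (adjusted p = 0.0577), which left 8 genes. With library totals the difference was -3.66 for Eif2ak1, -6.34 for Trib3, 2.51 for Eif2ak4 and 1.82 for Eif2ak2. The median was -4.11 over the 10 genes and 0.69 over all genes. This comparison and that of S3 with S0-Low share the 3 S3 libraries.

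Other genes of the pathway were counted in S3 against S0-Low, upstream first, beside 13.4% of all genes called higher and 22.4% called lower. Of 8 subunit genes of eIF2 and its exchange factor eIF2B, 1 rose (Eif2s2, the beta subunit of eIF2, 1.57 on the log2 scale, adjusted p = 0.00378), 1 fell (Eif2b1, -1.68, adjusted p = 0.0162) and 6 did not pass. Of 11 other regulators of eIF2alpha phosphorylation, 2 rose, 2 fell and 7 did not pass. With so few genes, the counts of these lists are close to the shares over all genes and are no result about either list. Those that rose were the phosphatase catalytic subunits Ppp1cb (2.04) and Ppp1cc (1.07), whose proteins pair with GADD34. Those that fell were Impact (-1.83), an inhibitor of GCN2, and Gcn1 (-1.02, adjusted p = 0.0492), an activator of GCN2. The list medians were -0.12 and 0.03. With library totals no gene of either list was called higher, and 3 and 4 were called lower, beside 1156 higher and 6228 lower of all 16555 genes under that scaling.

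Among 5 stress-induced bZIP factors and partners of ATF4, 4 rose and none fell. Atf5, a factor regulated like ATF4, had 4.08, 4.61 and 0.581 CPM in S0-Low and 107, 136 and 122 CPM in S3, a rise of 5.28 on the log2 scale (SE 0.72, adjusted p = 8.08e-05). Atf3 rose by 4.81 (adjusted p = 0.00522) and Cebpg, a dimer partner of ATF4, by 2.66 (adjusted p = 0.000826). Of 9 amino acid transporter genes, 7 rose and none fell, with a list median of 2.53. Slc6a9, which encodes the glycine transporter GLYT1 that supplies glycine to haem synthesis, went from 9.66, 21.6 and 54.0 CPM to 1104, 1325 and 1975 CPM (5.69, SE 0.78, adjusted p = 8.04e-05). Slc1a5 (3.54), a glutamine transporter, and Slc7a11 (3.19), the cystine transporter, rose too.

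Of 12 cytoplasmic aminoacyl-tRNA synthetase genes, 9 rose and none fell, with a median of 1.53. Aars1 rose by 2.75, Cars1 by 2.50 and Gars1 by 2.24 on the log2 scale. With library totals, 5 of the 12 were called higher and the median was 0.70. Of 11 genes of serine, glycine and one-carbon metabolism, 4 rose, 2 fell and 5 did not pass. The mitochondrial folate enzyme gene Mthfd2 rose by 3.10 (adjusted p = 0.000147), Cth by 3.29 and Pck2 by 2.25, whereas Phgdh, the first enzyme of serine synthesis and like the others a known ATF4 target, fell by 1.79 (adjusted p = 0.0405). The median of that list, 0.38, became -0.41 with library totals. Of 8 genes listed as brakes on mTORC1 or, for Eif4ebp1, on translation downstream of it, 5 rose. Sesn2, a leucine sensor and ATF4 target, went from 13.8, 20.7 and 19.4 CPM to 518, 513 and 398 CPM (4.73, SE 0.75, adjusted p = 0.000251), while Sesn1 (1.39) and Eif4ebp1 (1.14) rose less. With library totals the count was 1 higher and 3 lower of 8, near the shares of all genes called under that scaling, and with replicates 1 and 2 only it was 2 higher, while calls over all genes went from 5932 to 6507, so the count of 5 depends on the setting.

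Endoplasmic reticulum stress genes had counts close to the shares over all genes, which are no result about the list. Of 11, 3 rose, among them Atf6 (2.46) and Herpud1 (2.45), and 2 fell, among them the chaperone gene Pdia4 (-3.19, adjusted p = 0.00157). Hspa5, which encodes the chaperone BiP and is the usual marker of this stress, had 559.9, 724 and 266 CPM in S0-Low and 448, 939.6 and 1442 CPM in S3, which overlap, and did not pass (0.87, adjusted p = 0.182). The median of 0.60 became -0.22 with library totals.

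Genes known to respond to handling and heat moved in S3 as well. Of 8, 4 rose and 4 did not pass, with a median of 1.91. With library totals, 2 of the 8 were called higher and the median was 1.10. Hspa1a, the inducible HSP70 gene, had 0.517, 0.698 and 2.66 CPM in S0-Low, 1.82, 3.68 and 6.84 CPM in S2 and 166, 122 and 137 CPM in S3. That is 6.84 on the log2 scale over S0-Low (SE 0.78, adjusted p = 1.88e-05), and Hspa1b (4.78) and Dnajb1 (1.66) rose too. The summed level of the 8 genes was 247 to 677 CPM in S0-Low, 303 to 977 CPM in S0-Medium, 396 to 1109 CPM in S1, 400 to 1131 CPM in S2, 988 to 1569 CPM in S3 and 302 to 523 CPM in Lin+, so S3 overlapped S1 and S2. Hsph1, an HSP110 chaperone gene, did not pass (-0.24, adjusted p = 0.833), with 279 ± 153 CPM in S0-Low, 578 ± 403 CPM in S1, 492 ± 393 CPM in S2 and 235 ± 94.4 CPM in S3 (SD, n = 3). Of the immediate early genes, Ier2 rose from a mean of 67.5 ± 43.4 CPM in S0-Low to 190.5 ± 86.4 CPM in S3 (SD, n = 3, edgeR adjusted p = 0.0460). On the log2 scale Fos (3.45, adjusted p = 0.0658), Egr1 (2.17, adjusted p = 0.198) and Jun (0.71, adjusted p = 0.219) did not pass. All populations were sorted, rested and labelled, and no library was made from unsorted or unlabelled cells, so the part of sorting, culture or 4sU in the levels of the 10 genes was not tested.

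**Figure D4:**
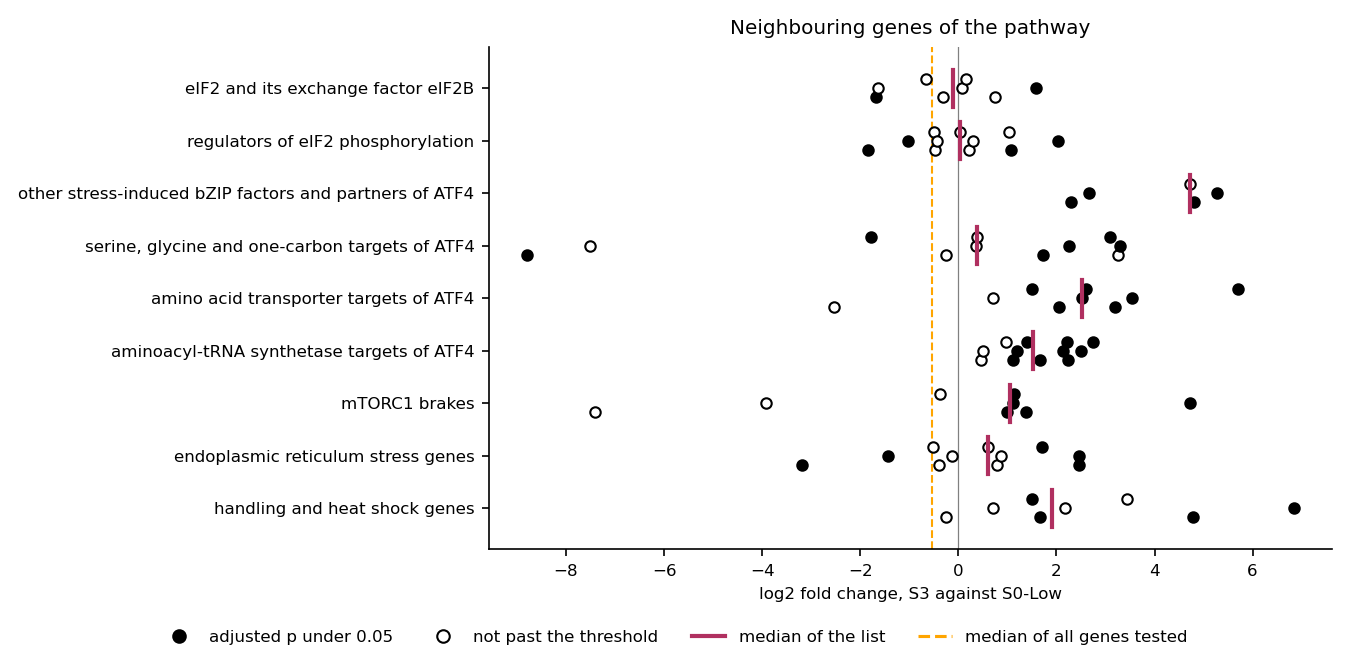
Log2 fold change of S3 over S0-Low for each tested gene in the 9 lists of related genes (filled, adjusted p under 0.05; open, above it), with the median of each list in red and that of all genes tested, -0.54, as a dashed line. The transporter list (7 of 9 higher) and the tRNA synthetase list (9 of 12 higher) lie mostly to the right of 0, and the eIF2 list lies on both sides.

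Across the 18 libraries, Eif2ak1 was closest to 5 genes outside the set by the Pearson correlation of log2(CPM + 0.5), among 12077 genes compared. They were Tmcc2 (r = 0.996), Dhrs11 (0.990), Slfn14-ps (0.990), Trak2 (0.988) and Tpm1 (0.988). Within the set, the correlation with Eif2ak1 was 0.993 for Ppp1r15a, 0.982 for Ddit3, 0.904 for Chac1, 0.886 for Trib3, 0.864 for Atf4, 0.859 for Asns and -0.875 for Eif2ak4. It was -0.293 for Eif2ak2 and -0.306 for Ddit4. The libraries fall into 6 populations that share their order of maturation and their scaling, so these values describe how alike the profiles were.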

How the data were processed

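4sU-labelled RNA from 18 libraries (5 erythroid populations and Lin+, 3 replicates each) was analysed. The authors prepared stranded libraries with 14 cycles of PCR and no molecular identifiers, and deposited Kallisto estimated counts for each gene as whole numbers, without normalization and without pooling replicates. The submitters' processing notes name kallisto 0.43.0 and GRCm38. The transcript set, the treatment of introns and the use of strand in counting are not given in the sources used here. The floor of 3 counts covers counting error only. Every column of the table matched a sample.

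Samples were grouped by their labels. The paper describes the replicates as biological, but neither it nor the labels say what separated them (embryos, litters or days), so p-values measure the spread between these samples. Counts were analysed with edgeR 4.0.16 in R 4.3.3 (TMM, filterByExpr, glmQLFit and glmQLFTest, two-sided, Benjamini-Hochberg adjusted p under 0.05) with population as the only factor. The 15 erythroid libraries entered one fit (16555 genes) and all 18 the fits with Lin+ (17755 genes). The study used DESeq2, here an alternative (DESeq2 1.42.0). Levels use the TMM factors of all 18 libraries. The procedure was tested on simulated data. Few genes changed there, only in S3, and libraries shared no replicate effect, so the test does not cover the conditions here. Tables and plots were made with Python 3.11.15, pandas 2.3.3, numpy 2.4.6 and matplotlib 3.10.9. Gene coordinates and promoters are from RefSeq GRCm38.p6. Transcript lengths, and the 31-base stretches that genes share on either strand, are from the GENCODE M1 annotation of an older build.

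All 10 genes are reported. In each list up to 3 genes past the threshold with the largest change in S3 against S0-Low and at least 100 normalized counts were named, others where their role was needed, and the 5 genes most like Eif2ak1 were taken by correlation. The members and lists were chosen with earlier results of these data known. Of 12 listed regulators of eIF2 phosphorylation, 11 could be matched to an identifier. Markers of 8 cell types were also listed. The erythroid list is not reported here as a whole. From S0-Low to S3, all 6 stem and progenitor genes fell, as did 6 of 8 granulocyte and monocyte, 0 of 6 macrophage, 1 of 5 megakaryocyte, 1 of 5 lymphoid, 2 of 4 hepatocyte and 2 of 3 endothelial genes, and no gene of these lists rose; the others were not called or had too few counts to be tested.

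Same-numbered libraries deviated together (correlation over 0.1 for each number) in every comparison except S3 against S0-Low and Lin+ against S3. In S3 against S2 the correlations were 0.171, 0.256 and 0.315. The pairing comes from the replicate numbers in the labels, whose meaning is not stated. Alternatives were DESeq2, RLE factors, library totals, no filter, the replicate block and leaving out each replicate. Using replicates 1 and 2 only was chosen after seeing the data.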

Additional observations from a re-analysis of the deposited data

How the results depend on the processing

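Between S3 and S0-Low, 8 of the 10 genes were called under every alternative and with each library left out, and 8 to 9 were called among the 5 erythroid populations and in Lin+ against S3, where Eif2ak2 was lost without Lin+ replicate 3. The alternatives called 4344 to 7384, 3293 to 6253 and 5971 to 8538 of all genes in turn. The replicate block left 8, 8 and 9 genes called in these comparisons, and in S3 against S2 it raised the count from 2 to 6. Its calls over all genes went from 5932 to 7014, 4077 to 5479, 7501 to 8538 and 1548 to 3074. Elsewhere the block left the number of the 10 genes called as it was. In S3 against S2, DESeq2 called 6, no filter 5 and replicates 1 and 2 only 6 genes, with 1 to 5 when single libraries were left out. Calls over all genes went from 1548 to 3332, 2546 and 3259 in these settings, and to 692 to 2375 with single libraries left out. No filter gave 1 call (Trib3) in S1 against S0-Medium, with 327 over all genes, and 1 (Trib3) in S2 against S1, with 77 over all genes. The Eif2ak2 call in Lin+ against S0-Low was lost with each single library left out (0 to 0 calls) and with replicates 1 and 2 only (0 calls). Calls over all genes went from 127 to between 42 and 69 with single libraries left out, and to 198 with replicates 1 and 2 only. With library totals, all 8 called values of S3 against S0-Low moved by over 1.5 times in fold and kept their calls. With replicates 1 and 2 only, Trib3 was 6.81 and Chac1 6.54 there. Signs turned only for log2 fold changes that were not called. With library totals, Eif2ak2 became -0.39 in S3 against S0-Low, -0.36 in S3 against S2 and -0.079 in S1 against S0-Medium, and Ddit4 became -0.29 in S3 against S0-Low. In S1 against S0-Medium, Eif2ak2 was -0.042 with DESeq2, -0.042 with RLE factors and -0.10 with replicates 1 and 2 only, and in S2 against S1 it was 0.030 with the latter. Chac1 in S0-Medium against S0-Low was -0.15 with DESeq2, -0.12 with RLE factors and -0.044 with library totals, and Trib3 in Lin+ against S0-Low was -0.45 with replicates 1 and 2 only. With single libraries left out, ranges that crossed 0 were -0.39 to 0.92 for Ddit4 in S3 against S0-Low and -0.17 to 1.14 in Lin+ against S3. In S0-Medium against S0-Low they were -0.0095 to 0.60 for Eif2ak1, -0.23 to 0.083 for Eif2ak4 and -0.96 to 1.29 for Chac1. Eif2ak2 ran from -0.13 to 0.078 in S1 against S0-Medium, -0.17 to 0.0044 in S2 against S1 and -0.044 to 0.27 in S3 against S2, and Chac1 from -1.39 to 3.27 in S2 against S1. In Lin+ against S0-Low, Atf4 ran from -0.12 to 0.54, Ddit3 from -0.071 to 0.43 and Trib3 from -0.28 to 0.72. The causes were not tested. Depth limits Trib3, Chac1 and Ddit4 in S0-Low most, where single libraries held 0 to 359 counts. Undivided by length, the Eif2ak1 share went from 36.5% in S0-Low to 91.8% in S3.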
